A study of Homo sapiens with 18 samples.

Results

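The S100 genes examined here are S100A8, S100A9, S100P, S100A2, S100A4, S100A6, S100A10, S100A11, S100A14 and S100A16, 10 genes chosen by name from the 26443 genes with values. They encode small calcium-binding proteins, and RNA sequencing gave the level of their transcripts in LNCaP, an androgen-sensitive line of human prostate cancer cells. All cells were infected with lentivirus for 5 days and received 100 µM CoCl2, a chemical mimic of low oxygen, for the last 24 h, so the controls carry that treatment too and no group without it was analysed. The 6 groups of 3 libraries were control (pGIPZ control vector), shHIF1A (shRNA against HIF1A), shFOXA1 (shRNA against FOXA1), shFOXA1+shHIF1A (both shRNAs), control+KC7F2 and shFOXA1+KC7F2. KC7F2, an inhibitor of HIF1A, was given at 40 µM for 24 h. All groups come from 1 cell line, and the labels do not say which shRNA sequences were used, what the vehicle of KC7F2 was, or whether the libraries of a group came from separate cultures, so p-values measure only the spread between these libraries, which may be technical.

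S100 proteins carry a pair of EF-hand loops that bind calcium, and most work as dimers that change shape when calcium rises and then grip a partner protein. Inside the cell the partners include annexins, ezrin and myosin, and some S100 proteins are also released and act on receptors such as AGER (RAGE) and TLR4. Most S100 genes lie in 1 cluster on chromosome 1 within the epidermal differentiation complex, a block of genes used by stratified epithelium, while S100P lies on chromosome 4. FOXA1 is a pioneer factor that opens chromatin for other transcription factors in luminal prostate cells, and HIF1A is the oxygen-regulated subunit of the hypoxia-inducible factor.

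S100A9 (GENCODE 29 on GRCh38, chr1:153357854-153361027, plus strand) and S100A8 (chr1:153390032-153391188, minus strand) are neighbours in that cluster, and S100P is at chr4:6693069-6697170, plus strand. The 250 bases before a RefSeq start (GRCh38.p14) of these 3 genes are shown because their RNA moved most when FOXA1 was depleted. They span chr1:153391189-153391438 on the minus strand for S100A8 (1 of 3 starts in the table), chr1:153357604-153357853 on the plus strand for S100A9 and chr4:6693628-6693877 on the plus strand for S100P, 5′ to 3′, with TATAAA in capitals.
S100A8: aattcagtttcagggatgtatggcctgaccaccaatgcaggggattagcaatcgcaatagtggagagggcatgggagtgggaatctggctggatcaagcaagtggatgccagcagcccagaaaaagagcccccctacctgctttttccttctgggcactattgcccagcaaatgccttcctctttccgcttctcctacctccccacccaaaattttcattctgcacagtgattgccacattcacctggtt
S100A9: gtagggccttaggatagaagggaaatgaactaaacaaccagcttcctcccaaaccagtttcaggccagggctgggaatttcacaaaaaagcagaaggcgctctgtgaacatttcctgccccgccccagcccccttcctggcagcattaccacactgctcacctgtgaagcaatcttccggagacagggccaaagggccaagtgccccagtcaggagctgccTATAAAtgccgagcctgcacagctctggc
S100P: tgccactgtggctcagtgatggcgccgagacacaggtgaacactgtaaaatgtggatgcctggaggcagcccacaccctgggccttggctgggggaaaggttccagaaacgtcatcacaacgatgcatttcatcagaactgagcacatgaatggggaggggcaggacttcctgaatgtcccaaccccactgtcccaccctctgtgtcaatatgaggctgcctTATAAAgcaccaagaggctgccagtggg
TATAAA stood 29 bases before the start in S100A9 and 28 before that in S100P, and is not among the 250 bases of S100A8. On both strands, none of the 3 held the forkhead motif TGTTTNC, the hypoxia response core ACGTG or GCGTG, the C/EBP motif TTGCNNAA or the AP-1 motif TGANTCA. Of 35116 RefSeq promoters of that length, 15.5% held the forkhead letters, 43.2% the hypoxia core, 9.05% the C/EBP motif, 6.57% the AP-1 motif and 10.7% TATAAA. These counts describe letters in short windows, not binding. For S100A8 only the window of the start shown was read, so other motifs near its other starts are not covered.

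Library depth, recovered from the spacing of the deposited values, was 10.3 to 11.6 in control and 5.17 to 7.70 in shFOXA1 (in units of 1e6 reads), and ranged from 3.26 to 12.1 over the 18 libraries. FOXA1 RNA was 97.5 ± 22.7 RPKM (reads scaled to gene length and library size; mean ± SD, n = 3, as in all that follows) in control, 34.1 ± 1.51 in shFOXA1, 64.5 ± 5.77 in shFOXA1+shHIF1A and 39.3 ± 4.59 in shFOXA1+KC7F2. The labels therefore held, but FOXA1 RNA was higher with both shRNAs than with shFOXA1 alone, by 0.91 ± 0.16 log2 (SE; limma, adjusted p = 0.000302). HIF1A RNA was 23.1 ± 7.91 RPKM in control, 3.56 in shHIF1A, 4.32 in shFOXA1+shHIF1A, 89.9 in shFOXA1 and 62.8 in shFOXA1+KC7F2. Libraries control 1, control+KC7F2 1 and control+KC7F2 3, called short-gene-rich below, stood apart, with short genes 0.39 to 0.53 log2 higher than long ones against the average library, where the others lay between -0.19 and 0.10. HOXB13, a marker of luminal prostate cells, was detected in every group, at 97.0 RPKM in control, 118 in shFOXA1, 69.1 in shHIF1A and 67.9 with both shRNAs.

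S100A11 was by far the most abundant member and made up 75.1 to 93.2% of the summed RPKM of the 10 genes in a library. S100P followed in the groups with FOXA1 intact, and the other members were below 5 RPKM in every library of the groups without FOXA1 knockdown. S100A6, the calcyclin gene, was listed at 0 in 17 libraries and at 0.128 RPKM in shHIF1A 2, so it was not tested. By GENCODE 29 positions no other gene with values overlaps it, and genes without values were not checked. Whether its zeros come from the counting or from the cells was not tested. The other 9 members passed the filter for testing of at least 1 RPKM in at least 3 libraries, S100A8 with 7 such libraries, S100A2 with exactly 3. Of 10 further S100 genes, S100A1, S100A7 and S100A13 were tested, and 7 (S100A3, S100A5, S100A7A, S100A12, S100B, S100G and S100Z) stayed below 1 RPKM in every library.

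FOXA1 knockdown against control asks what loss of FOXA1 does under the hypoxia mimic. S100A8 and S100A9, the calgranulins, rose from near or at 0 to among the more abundant members, S100P fell to a few RPKM, and S100A11 was a little lower. Thus 4 of the 9 tested members passed an adjusted p of 0.05, 2 rising and 2 falling, where 24.1% of the 12900 genes tested passed, 9.52% upwards and 14.6% downwards. The split of all genes depended on scaling, with 12.1% upwards and 11.2% downwards after median-ratio scaling, and on control 3, without which 20.9% passed downwards. The members' median difference was -0.18 log2 and that of all genes tested -0.09. S100A8 passed the filter only through libraries other than control, so the count describes the members and supports nothing. The members were chosen with earlier results of these data known, so their counts in the comparisons below are description too. In these bulk libraries a change in the share of cells that make an RNA and a change in RNA per cell cannot be told apart.

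S100A9 and S100A8 together form calprotectin, the zinc- and manganese-binding complex that neutrophils carry in bulk and that keratinocytes make when stressed. S100A9 stood at 0.915, 1.20 and 0.672 RPKM in the control libraries (6, 8 and 4 reads) and at 50.6, 53.4 and 42.6 RPKM in the shFOXA1 libraries (225, 188 and 127 reads). The groups do not overlap, and the lowest shFOXA1 library lies far above the highest control. The difference was 5.12 ± 0.20 on the scale log2(RPKM + 0.5), 34.8-fold on that scale, with an adjusted p of 3.97e-11 by limma. Fitted log2 differences, folds and percentages left are on that scale throughout, unless another setting is named. That scale makes folds of low levels smaller than those of the RPKM.

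S100A8 had no read in any control library and 66, 63 and 28 reads in shFOXA1 1, 2 and 3, which is 16.4, 19.7 and 10.4 RPKM. Pooled over the group, 157 reads in shFOXA1 stand against 0 in control at a greater depth. The pooled level was 91.7-fold a floor of 3 reads over the control group, a ratio that leaves out the spread between libraries. The adjusted p was 6.1e-07 by limma. The fitted difference of 4.95 log2 depends on the pseudocount and is no estimate of the fold.

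S100P, first found in placenta, binds ezrin and is also an extracellular ligand of RAGE. It stood at 77.7, 51.3 and 34.6 RPKM in control (450, 303 and 182 reads) and at 3.57, 3.85 and 1.14 RPKM in shFOXA1 (14, 12 and 3 reads). All 3 shFOXA1 libraries lie below every control. The difference was -4.09 ± 0.34 log2, or 5.89% of the control level left, with an adjusted p of 1.52e-07 by limma. Control 1, the highest, is one of the short-gene-rich libraries, and without those 3 libraries the difference was -3.79.

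**Figure D1:**
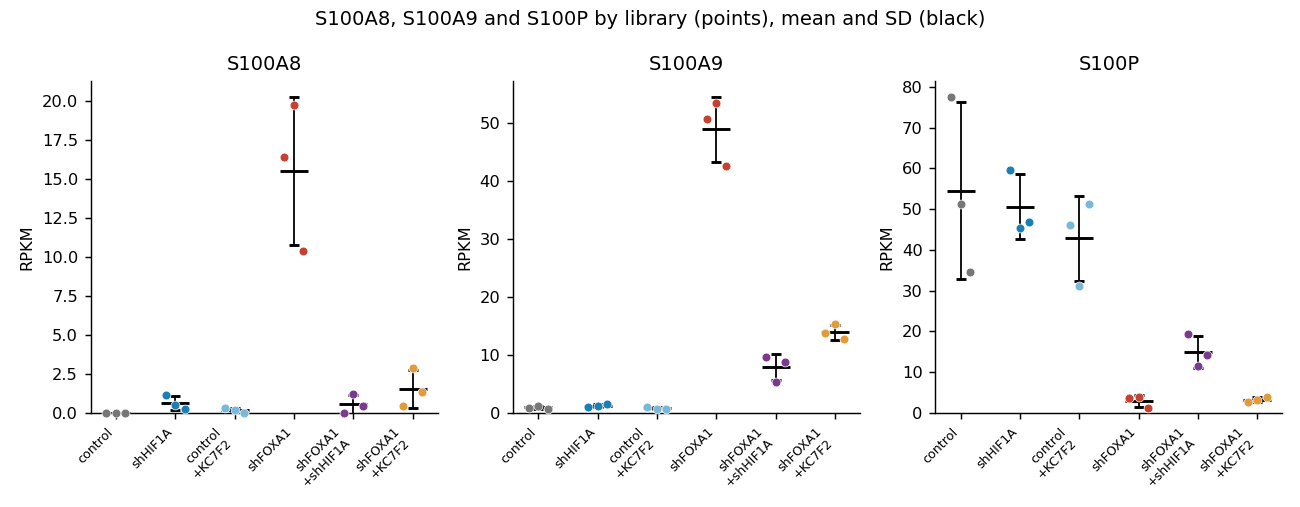
Levels of S100A8, S100A9 and S100P in RPKM by group, with 1 point per library and the mean and SD in black. S100A8 and S100A9 are highest in shFOXA1 (means of 15.5 and 48.9 RPKM) and S100P is lowest there (2.85 RPKM).

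S100A11, the partner of annexin A1, was 358, 310.4 and 341 RPKM in control and 295, 251 and 239 RPKM in shFOXA1. The groups do not overlap, but the difference of -0.37 ± 0.12 log2 (adjusted p = 0.0347) was not stable. Leaving out control 1 ended the call (adjusted p = 0.099), as did leaving out control 3 (0.0531), shFOXA1 2 (0.0994) or shFOXA1 3 (0.141), and after median-ratio scaling it was -0.27 with an adjusted p of 0.0853, all by limma. Quantile normalisation brought it to -0.16.

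S100A14, a member found in epithelia, was 0.830, 0.489 and 0.0915 RPKM in control (10, 6 and 1 reads) and 2.21, 2.32 and 0.912 RPKM in shFOXA1 (18, 15 and 5 reads). These do not overlap, yet the difference of 1.26 ± 0.45 log2 just missed the threshold by limma (adjusted p = 0.0503). Median-ratio scaling (0.0343) put it below the threshold, as did leaving out control 1 (0.04) or shFOXA1 3 (0.0323). S100A2, S100A4, S100A10 and S100A16 did not pass, with overlapping libraries in each. S100A4, the myosin-binding member also called metastasin, was 1.23 ± 0.879 RPKM in control and 0.920 ± 0.300 in shFOXA1. S100A2, a gene of basal keratinocytes, was 1.06 ± 0.855 and 0.464 ± 0.431 RPKM on 0 to 19 reads a library, and without control 3, its lowest control, its adjusted p was 0.0264.

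**Figure D2:**
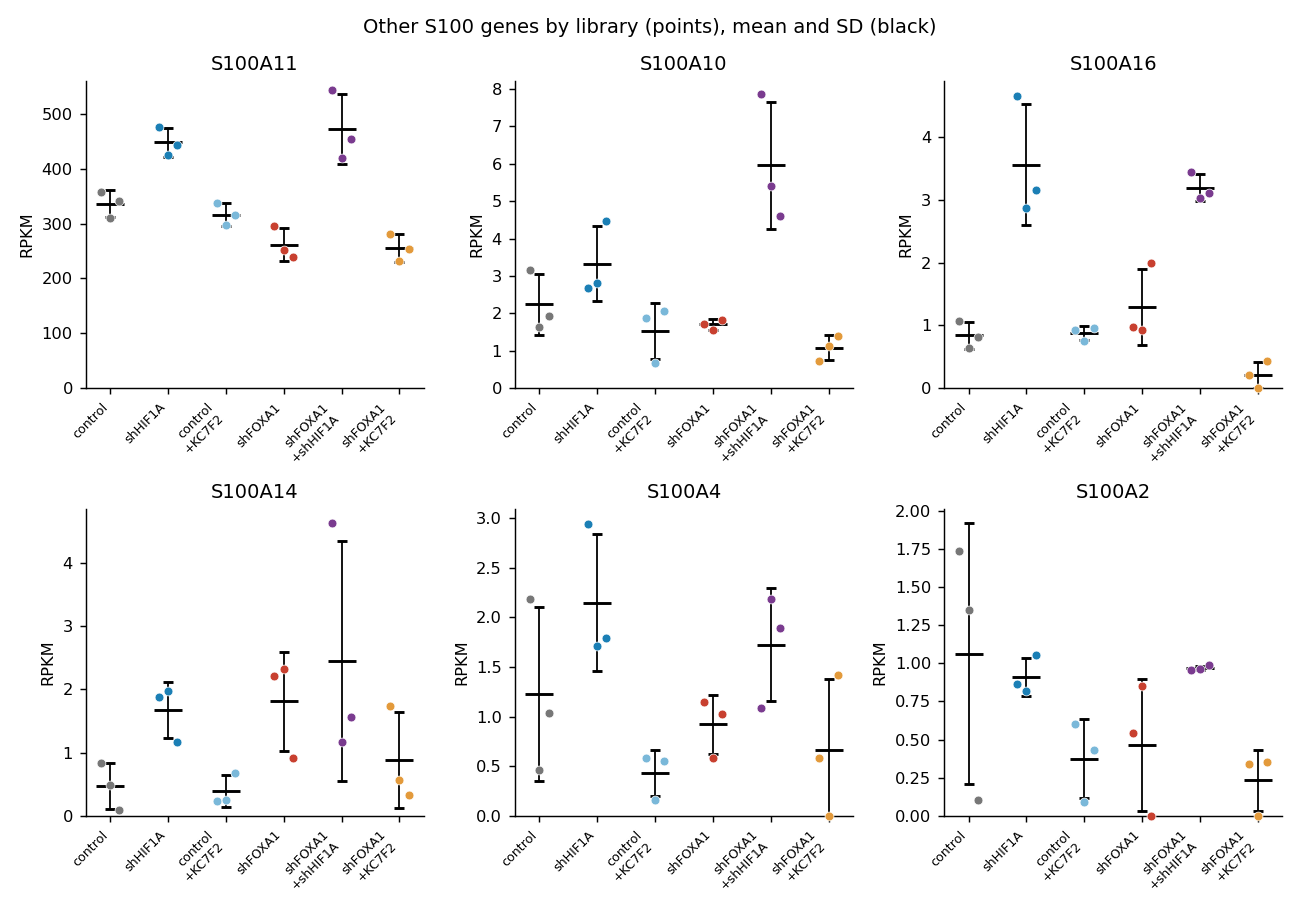
Levels of the other tested members in RPKM by group, with 1 point per library and the mean and SD in black. S100A11 lies between 232 and 544 RPKM in all libraries, while the others stay below 8 RPKM.

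Few neighbours of the calgranulins in the cluster on chromosome 1 were expressed highly enough to be tested, and some of those rose too. From S100A10 to S100A1, a span of 1649 kb, 48 further genes had values, and 4 of them (HRNR, LCE1F, IVL and SPRR2A) passed the filter. Of these 2 rose and 0 fell with FOXA1 knockdown (9.52% and 14.6% of all genes). The 2 that rose, IVL and SPRR2A, passed the filter only through libraries other than control, so the count supports nothing. IVL, which encodes involucrin, a scaffold of the cornified envelope, went from 0.128 to 4.38 RPKM (2.96 ± 0.20 log2, adjusted p = 1.43e-08). SPRR2A, another envelope precursor, was at 0 in control and at 1.41 ± 0.0571 RPKM in shFOXA1 (adjusted p = 1.2e-05, both by limma). HRNR was at 1.61 and 1.77 RPKM and LCE1F at 0 in both groups. Of the fixed list of 44 genes of the epidermal differentiation complex these same 4 were tested, and 30 of the 44 were at 0 in all shFOXA1 libraries. S100A7, between S100A8 and S100A4, was at 2.14 ± 0.665 and 4.18 ± 2.48 RPKM in control and shFOXA1 and did not pass.

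**Figure D3:**
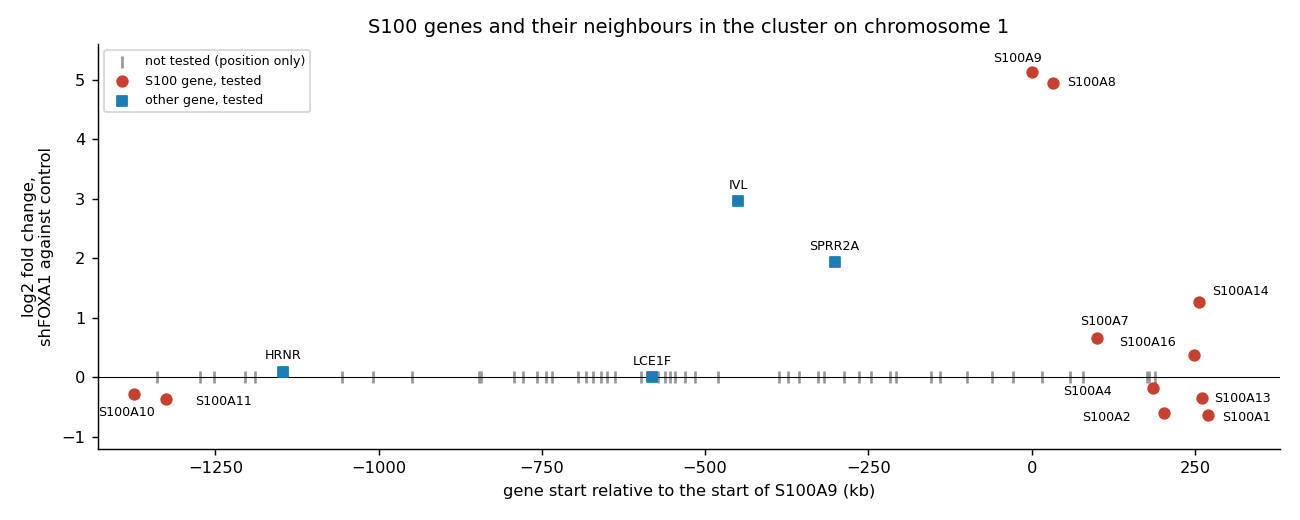
Log2 difference of shFOXA1 against control for each tested gene of the cluster, plotted at its start relative to the start of S100A9 in kb. Red circles are S100 genes, blue squares other genes, and grey marks show only the position of genes that were not tested; S100A9 and S100A8 lie at 5.12 and 4.95, with S100A10 and S100A11 below 0 at the far end.

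Calgranulins are best known from neutrophils and monocytes, so markers of these cells were read beside them. All 13 myeloid markers failed the filter, and their summed level was 0.284 to 0.891 RPKM in shFOXA1 and 0.414 to 1.07 RPKM in control. PTPRC, CSF3R, FCN1, MPO, ELANE, SPI1 and TYROBP, 7 of the 13, were at 0 in every shFOXA1 library. Some markers of basal and squamous epithelium were also higher in shFOXA1. The sum of 8 such markers was 1.24 to 1.97 RPKM in control and 44.4 to 57.3 RPKM in shFOXA1. All 3 tested (KRT16, KRT6A and KRT14) rose, where 9.52% of all genes did, and the other markers did not pass the filter. KRT16 passed it only through libraries other than control, so nothing is read from that count. The KRT6A difference was not stable in size either, from 1.20 to 3.48 log2 over the other settings. KRT16, a keratin of stressed and hyperproliferative epidermis, made up most of that sum, at 0.0674 ± 0.0767 RPKM in control and 42.6 ± 5.77 in shFOXA1 (6.25 ± 0.17 log2, adjusted p = 3.84e-13, limma). KRT5 and DSG3, defining genes of basal and squamous cells, were at 0 in all shFOXA1 libraries. Their part in the calgranulin rise was not tested. HOXB13, the luminal marker given above, rose by 0.29 ± 0.09 log2 in shFOXA1 (adjusted p = 0.0254), a call lost without control 3 (0.0816), shFOXA1 1 (0.0566), shFOXA1 2 (0.0818) or shFOXA1 3 (0.0545, limma).

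HIF1A knockdown against control asks what HIF1A does to these genes with FOXA1 present. S100A16, S100A14 and S100A11 rose, 0 members fell by limma (0 also at an unadjusted p below 0.05), and the libraries of S100P and S100A9 overlapped the controls. The 3 calls among 9 tested members compare with 42.0% of all genes tested (25.9% upwards, 16.1% downwards), and nothing is read from that count. The members' median difference was 0.49 log2 and that of all genes 0.07.

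S100A16, a widely expressed member that binds calcium weakly, went from 1.07, 0.647 and 0.817 RPKM in control (13, 8 and 9 reads) to 4.66, 2.87 and 3.16 RPKM in shHIF1A (60, 35 and 30 reads). Every shHIF1A library lies above every control, and the difference was 1.58 ± 0.25 log2, 2.99-fold on the scale of RPKM + 0.5 (adjusted p = 9.36e-05). S100A11 was 477, 425 and 443 RPKM in shHIF1A, all above the controls, a difference of 0.41 ± 0.12 log2 or 1.33-fold (adjusted p = 0.0105). It was 0.69 with quantile normalisation, and its adjusted p was 0.0762 when only the 2 groups were fitted. S100A14 was 1.88, 1.98 and 1.17 RPKM (1.22 ± 0.45 log2, or 1.88 with a pseudocount of 0.1; adjusted p = 0.0376). That call rested on single libraries: without control 2, control 3, shHIF1A 1 or shHIF1A 2 its adjusted p was 0.064, 0.147, 0.0979 and 0.107 (all limma).

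The fibroblast markers COL1A1 and COL3A1 also rose in shHIF1A, and the summed level of the 6 markers was 7.97 to 9.26 RPKM there against 2.62 to 3.50 in control. COL1A2 and DCN were at 0 in all control libraries, and 0 of the 6 were at 0 in all shHIF1A libraries. Their part in the rise of S100A16, S100A14 and S100A11 was not tested. S100A8 was at 1.11, 0.502 and 0.215 RPKM in shHIF1A on 7, 3 and 1 reads, which did not pass by limma (adjusted p = 0.0729; without shHIF1A 3, 0.048). S100P at 50.7 ± 7.90 RPKM overlapped control at 54.5 ± 21.7 RPKM.

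KC7F2 against control called 0 of the 9 tested members by limma, where 2.04% of all genes tested passed (1.05% upwards, 0.992% downwards; 0.783% and 1.5% after median-ratio scaling, and 0.519% in all without the short-gene-rich libraries), and 0 members had an unadjusted p below 0.05. S100A9 was 0.781 ± 0.198 RPKM with KC7F2 and 0.928 ± 0.263 without, S100P 42.8 ± 10.5 and 54.5 ± 21.7, and S100A11 316 ± 20.4 and 337 ± 24.1. The libraries of the 2 groups overlapped for every tested member. S100A8 had 3 reads over the control+KC7F2 group.

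Adding the HIF1A shRNA to FOXA1 knockdown asks what of the FOXA1 response depends on HIF1A. The calgranulins fell back, S100P recovered in part, and S100A10, S100A11 and S100A16 rose. Of 9 tested members 4 rose and 2 fell, where 37.5% of all genes passed (24.0% upwards, 13.5% downwards; 17.6% and 18.3% after median-ratio scaling). The members' median difference was 0.72 log2 against 0.10 for all genes. FOXA1 RNA itself was higher in these cells than in shFOXA1, as given above, and its part in these differences cannot be told apart from that of HIF1A knockdown.

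S100A9 was 9.58, 5.35 and 8.84 RPKM in shFOXA1+shHIF1A (18, 20 and 43 reads), all below the lowest shFOXA1 library at 42.6. The difference was -2.58 ± 0.20 log2, or 16.7% of the shFOXA1 level left (adjusted p = 4.93e-08, limma). S100A8 kept 0, 4 and 2 reads, or 0, 1.18 and 0.454 RPKM, against 66, 63 and 28 reads in shFOXA1. Its difference was -4.06 ± 0.46 log2 (adjusted p = 4e-06, limma). KRT16 fell with them, from 42.6 to 9.10 RPKM, while IVL, also in the cluster, rose further to 8.30 ± 0.543 RPKM. The summed basal and squamous markers were 12.3 to 16.3 RPKM.

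S100P was 19.3, 11.5 and 14.2 RPKM in shFOXA1+shHIF1A (32, 38 and 61 reads), above every shFOXA1 library and below every control. The rise over shFOXA1 was 2.30 ± 0.34 log2, 4.94-fold (adjusted p = 5.39e-05). S100A10, the light chain of the annexin A2 complex that has lost calcium binding, was 1.72, 1.55 and 1.83 RPKM in shFOXA1 and 7.86, 5.41 and 4.61 RPKM with both shRNAs (27, 37 and 41 reads), its highest group. That is 1.52 ± 0.29 log2 or 2.87-fold (adjusted p = 0.000633). S100A11 was 544, 419 and 454 RPKM, 0.85 ± 0.12 log2 or 1.80-fold above shFOXA1 (adjusted p = 3.64e-05). S100A16 was 3.45, 3.03 and 3.11 RPKM against 0.973, 0.920 and 1.99 in shFOXA1, a rise of 1.09 ± 0.25 log2 (adjusted p = 0.00251, all limma). The summed fibroblast markers were again higher, at 5.28 to 5.94 RPKM against 2.18 to 2.80 in shFOXA1, with COL1A2 and LUM at 0 in all 3 libraries, and their part was not tested.

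Adding KC7F2 to FOXA1 knockdown asks the same with the inhibitor. S100A9, S100A8 and S100A16 fell, and 0 members rose by limma (0 also at an unadjusted p below 0.05). These 3 of 9 tested members compare with 4.08% of all genes tested (1.71% upwards, 2.37% downwards). Nothing is read from that count, as the members were chosen with earlier results of these data known. FOXA1 RNA did not pass in this comparison (0.19 ± 0.16 log2, adjusted p = 0.623, limma).

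S100A9 was 13.8, 15.3 and 12.7 RPKM in shFOXA1+KC7F2 (73, 59 and 64 reads), below every shFOXA1 library and above every library without FOXA1 knockdown. The difference from shFOXA1 was -1.78 ± 0.20 log2, or 29.2% left (adjusted p = 3.96e-05). S100A8 was 0.416, 2.86 and 1.31 RPKM (2, 10 and 6 reads), a difference of -3.13 ± 0.46 log2 (adjusted p = 0.000605). S100A16 was 0.204, 0 and 0.427 RPKM on 2, 0 and 4 reads, -1.33 ± 0.25 log2 from shFOXA1 (adjusted p = 0.00456, all limma). A pseudocount of 0.1 made that -2.39, and the adjusted p was 0.0826 when only the 2 groups were fitted. KRT16 was 4.32 ± 0.866 RPKM and the summed basal and squamous markers 7.36 to 8.59 RPKM.

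S100P was 2.77, 3.22 and 3.8 RPKM with KC7F2 (13, 11 and 17 reads) and overlapped shFOXA1. Its difference of 0.28 ± 0.34 log2 did not pass (adjusted p = 0.763, limma), whereas it rose when the HIF1A shRNA was added, and the 2 additions were not tested against each other. S100A11 at 255 ± 24.9 RPKM and S100A14 at 0.877 ± 0.760 overlapped shFOXA1. Of the further S100 genes S100A7 was called lower, at 5.62, 5.6 and 1.32 RPKM in shFOXA1 and 0.248, 1.70 and 1.04 with KC7F2 (adjusted p = 0.0414, limma). The groups overlap, and 4 of the 6 fits that leave out 1 library lost the call.

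**Figure D4:**
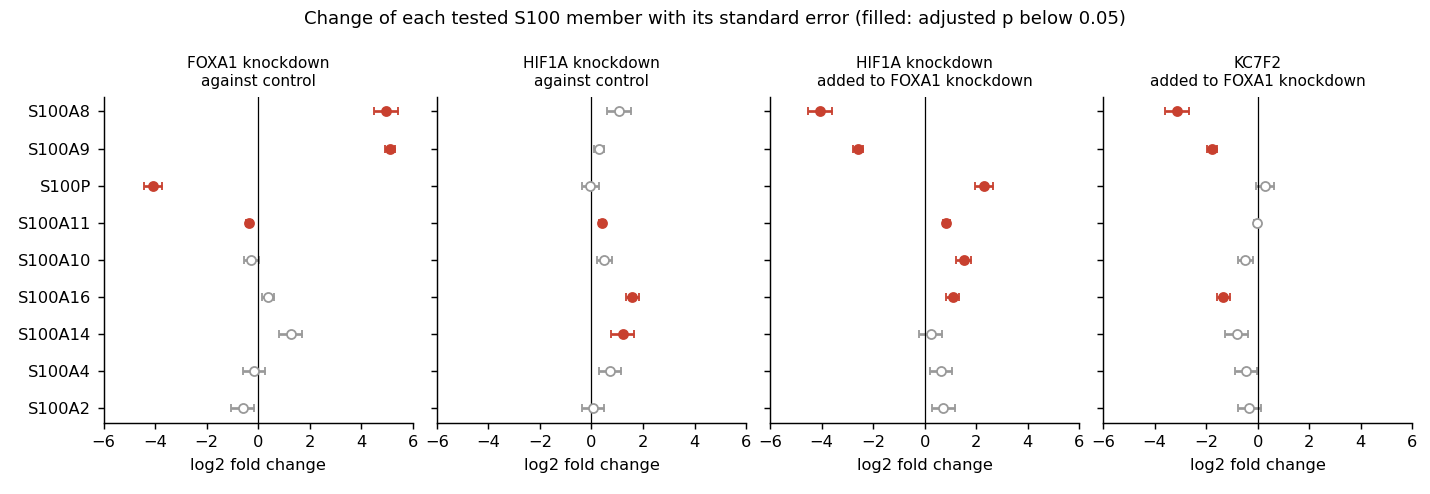
Differences of the 9 tested members on the log2 scale in 4 comparisons, with SE bars; filled red points passed an adjusted p of 0.05 and open grey points did not. S100A8 and S100A9 lie above 0 for FOXA1 knockdown against control and below 0 when the HIF1A shRNA or KC7F2 is added, and S100P lies at -4.09 and then 2.30 when the HIF1A shRNA is added.

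The FOXA1 effect was also measured within each HIF1A background. Under HIF1A knockdown 2 of 9 tested members passed, where 14.5% of all genes did (5.27% upwards, 9.25% downwards; 6.96% and 7.93% after quantile normalisation). S100A9 rose by 2.23 ± 0.20 log2, 4.70-fold (adjusted p = 1.13e-06), and S100P kept 29.9% of its level (-1.74 ± 0.34 log2, adjusted p = 0.00211, limma). S100A8 overlapped between shHIF1A and shFOXA1+shHIF1A (adjusted p = 0.862), on 11 and 6 reads a group. S100A10 was 2.68, 2.82 and 4.48 RPKM in shHIF1A, all below the 4.61 to 7.86 RPKM with both shRNAs, but did not pass by limma (adjusted p = 0.0977).

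Under KC7F2 4 of 9 members passed, 2 rising and 2 falling, where 32.9% of all genes did (8.88% upwards, 24.1% downwards). After median-ratio scaling these were 14.8% and 13.7%, and without the short-gene-rich libraries 13.9% passed in all. S100A9 rose by 3.50 ± 0.20 log2, 11.3-fold on the scale of RPKM + 0.5 (adjusted p = 2.15e-09, limma). On the same scale S100P kept 8.83% of its level (adjusted p = 9.92e-07, limma). S100A8 rose by 1.45 ± 0.46 log2 (adjusted p = 0.0239), a call lost without control+KC7F2 3 (0.0893), shFOXA1+KC7F2 2 (0.131) or shFOXA1+KC7F2 3 (0.0551). The pseudocount set the size of that difference, which was 2.52 with 0.1. S100A16 fell by 1.00 log2 (1.96 with a pseudocount of 0.1 and 0.65 with 1; adjusted p = 0.0058), but without the 3 short-gene-rich libraries, 2 of which are in control+KC7F2, its adjusted p was 0.147 and only 2 members were called (all limma). S100A13 also fell, from 12.4 ± 2.09 to 6.77 ± 1.04 RPKM (adjusted p = 0.00698, limma; -0.82 log2). Its difference was -0.54 with the length trend removed, and without the short-gene-rich libraries it was -0.55 and the call was lost (adjusted p = 0.0824, limma). It overlaps S100A1 on the other strand, and reads of the 2 genes cannot be told apart if the counting ignored strand.

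An interaction term tested whether the FOXA1 effect differed between backgrounds. With HIF1A knockdown it differed for 3 of 9 tested members (7.61% of all genes, 3.16% upwards and 4.45% downwards), S100A9 by -2.89 ± 0.28 log2 (adjusted p = 6.6e-06), S100A8 by -5.13 ± 0.65 (0.000102; -7.80 with a pseudocount of 0.1) and S100P by 2.34 ± 0.47 (0.00558). With KC7F2 it differed for 1 of 9 (0.0775% of all genes, 0.0155% upwards and 0.0620% downwards), S100A9 by -1.62 ± 0.28 (adjusted p = 0.0450). That last call was lost in 11 of the 12 fits that leave out 1 library, with adjusted p of 0.0551 to 0.122, and held without control 1 alone. S100A8 had -3.50 ± 0.65 there with an adjusted p of 0.0542 (all limma), and its size depends on the pseudocount.

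The proportion of the calgranulin pair is given from pooled reads as a description. Per length, S100A9 over S100A8 was 1.90 in shHIF1A (exact 95% interval 0.888 to 4.31, on 23 and 11 reads), 3.12 in shFOXA1 (2.61 to 3.75, on 540 and 157 reads), 12.2 in shFOXA1+shHIF1A (5.38 to 34.3, on 81 and 6 reads) and 9.87 in shFOXA1+KC7F2 (6.08 to 17, on 196 and 18 reads). These intervals cover counting error over pooled libraries only, since reads without molecular identifiers are not independent molecules, and no difference between groups was tested. Ordered by S100A9 level, shFOXA1 stood clear of shFOXA1+KC7F2, which stood clear of shFOXA1+shHIF1A, which stood clear of shHIF1A. The groups shHIF1A, control and control+KC7F2 each overlapped the next. For S100A8 only shFOXA1 stood clear, and shFOXA1+KC7F2, shHIF1A, shFOXA1+shHIF1A, control+KC7F2 and control each overlapped the next. For S100P the groups without FOXA1 knockdown overlapped one another and stood clear of shFOXA1+shHIF1A, which stood clear of shFOXA1+KC7F2 and shFOXA1. For S100A11 the pair with HIF1A shRNA overlapped and stood clear of control, which overlapped control+KC7F2, and both stood clear of shFOXA1 and shFOXA1+KC7F2.

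Receptors and partners of S100 proteins were measured from lists. Of 7 receptor genes, ALCAM, NPTN and BSG were tested. AGER, TLR4, CD36 and MCAM did not pass the filter. ALCAM, a cell adhesion molecule that has also been described as a receptor of S100B, was 18.9 ± 1.63 RPKM in control, 23.6 ± 1.45 in shFOXA1 (0.32 ± 0.09 log2, adjusted p = 0.0144), 74.3 ± 5.68 in shHIF1A and 81.0 ± 4.50 with both shRNAs. With FOXA1 knockdown 2 of the 3 rose, ALCAM and NPTN (9.52% of all genes), with HIF1A knockdown 3 of 3 (25.9%) and with HIF1A knockdown added to FOXA1 knockdown 3 of 3 (24.0%). The FOXA1 calls rested on single libraries. ALCAM failed by limma with control 1 left out (adjusted p = 0.065), as it did with shFOXA1 1 (0.0555) or shFOXA1 3 (0.0605) left out. NPTN lost its call without control 2 (0.159), control 3 (0.071), shFOXA1 1 (0.144) or shFOXA1 2 (0.132, all limma). KC7F2 called 0 of 3 in either background by limma, where 0 in control cells and 2 in FOXA1-depleted cells had an unadjusted p below 0.05.

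The 10 intracellular partners were all tested. With FOXA1 knockdown 5 rose and 1 fell (9.52% and 14.6% of all genes), with a median of 0.30 log2 against -0.09 for all genes. ANXA2, among those that rose, passed the filter only through libraries other than control, so nothing is read from that count or median. ANXA1, the annexin bound by S100A11, went from 1.13 ± 0.448 RPKM in control to 6.30 ± 0.887 in shFOXA1 (2.09 ± 0.21 log2, adjusted p = 1.78e-06) and 7.55 ± 1.98 in shHIF1A. It reached 44.4 ± 2.99 RPKM with both shRNAs, 2.73 ± 0.21 log2 above shFOXA1 (adjusted p = 7.18e-08, limma). ANXA2, the partner of S100A10, was 0.297 ± 0.164 RPKM in control and 1.67 ± 0.205 in shFOXA1 (adjusted p = 0.000529), its highest group. EZR, which encodes ezrin, bound by S100P, went from 51.0 to 81.9 RPKM (0.69 ± 0.11 log2, adjusted p = 0.00018), and ANXA6 fell from 18.6 to 13.1 RPKM (adjusted p = 0.0186, all limma). ANXA6 did not pass by limma with control 1 left out (adjusted p = 0.0665), nor with control 2 (0.0928) or shFOXA1 3 (0.0871) left out, nor when only the 2 groups were fitted (0.112). With HIF1A knockdown 6 of the 10 rose and 1 fell (25.9% and 16.1% of all genes), and with HIF1A knockdown added to FOXA1 knockdown 5 rose and 1 fell (24.0% and 13.5%). KC7F2 called 0 in control cells by limma (1 at an unadjusted p below 0.05) and lowered 1, ANXA2 (adjusted p = 0.0492, limma), in FOXA1-depleted cells.

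**Figure D5:**
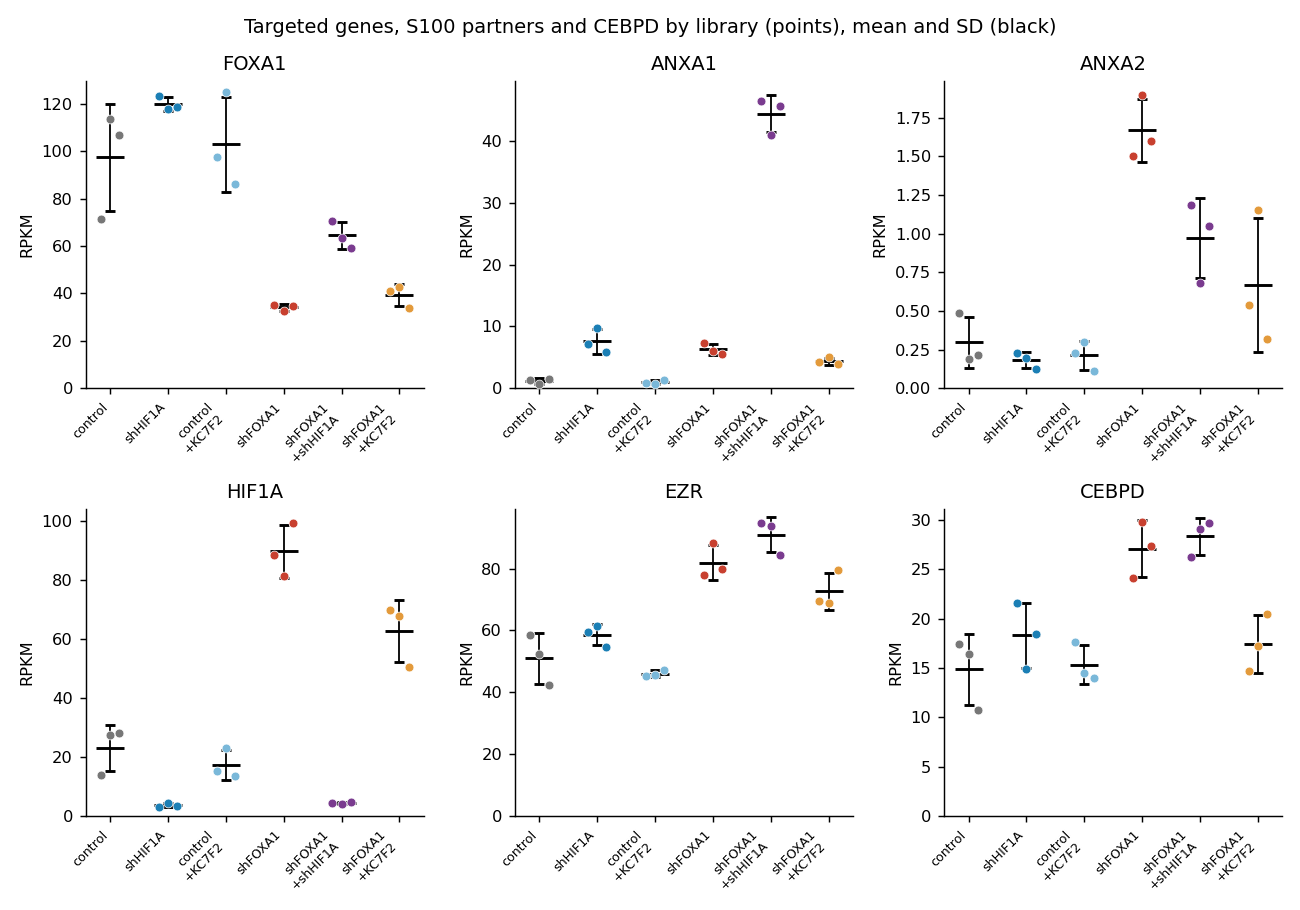
Levels in RPKM by group of the targeted genes FOXA1 and HIF1A, of the partners ANXA1, ANXA2 and EZR and of CEBPD, with 1 point per library and the mean and SD in black. FOXA1 is at 34.1 RPKM in shFOXA1 and 64.5 RPKM with both shRNAs, and ANXA1 is highest with both shRNAs at 44.4 RPKM.

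Of 10 genes known to act on calgranulin transcription (C/EBP factors, STAT3, NF-κB subunits and cytokines), 6 were tested and 3 rose with FOXA1 knockdown (9.52% of all genes). CEBPD, a C/EBP factor of the acute-phase response, went from 14.9 ± 3.64 to 27.1 ± 2.89 RPKM (0.87 ± 0.17 log2, adjusted p = 0.00155), NFKB1 from 11.8 to 15.1 RPKM (0.00738) and STAT3 from 46.5 to 55.2 RPKM (0.0371, all limma). With control 1 left out the adjusted p of STAT3 was 0.104 by limma, and with control 2 left out 0.0653. It was 0.107 with shFOXA1 1 left out and 0.116 with shFOXA1 3 left out. CEBPD and NFKB1 kept their calls whichever library was left out. NFKB1 lost its call when only the 2 groups were fitted (adjusted p = 0.0753, limma). CEBPD was 17.5 ± 2.93 RPKM in shFOXA1+KC7F2, below every shFOXA1 library but not past the threshold (adjusted p = 0.0569, limma), and 28.4 ± 1.84 RPKM with both shRNAs, overlapping shFOXA1. HIF1A knockdown added to FOXA1 knockdown called 0 of the 6 by limma, and 0 had an unadjusted p below 0.05. KC7F2 added to FOXA1 knockdown also called 0, with 2 at an unadjusted p below 0.05.

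The genes most alike in pattern were found by Pearson's r of log2(RPKM + 0.5) over the 18 libraries among 11347 genes, as a description. For S100A9 these were NRCAM (0.987), MGP (0.985) and DMKN (0.984), and for S100A8 ARHGEF3 (0.935), XDH (0.927) and ITGA6 (0.923). MGP, which encodes matrix Gla protein, was 0.138 RPKM in control, 13.3 in shFOXA1, 2.70 with both shRNAs and 2.83 with KC7F2. For S100P they were BBS4 (0.970), FAAH (0.965) and ACOT9 (0.964), and FAAH was 50.8 RPKM in control, 25.3 in shFOXA1 and 35.9 with both shRNAs. For S100A4 they were SNRNP27 (0.839), RP9 (0.831) and PRR15L (0.827). All 18 points share the group structure and their library depths.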

How the data were processed

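RNA of LNCaP cells was sequenced from NEBNext Ultra libraries, per the labels' protocols. The deposited table held the authors' RPKM values; the submitters' processing notes name STAR and hg38. How reads were counted, with which annotation and whether by strand, is not given in the sources used here. Of 26475 lines 32 had no value. The 18 columns were matched to samples by their labels, in 6 groups of 3.

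The RPKM values of low genes are whole multiples of 1 read. This spacing gave each library's depth, scaled by 93 of 99 microRNA hairpin genes of known length, and reads per gene. The S100 values checked (234 values of 13 genes) came out whole within 0.05, among them those of 9 of the 10 members. Reads are given beside the RPKM and were not used in the tests.

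limma 3.58.1 in R 4.3.3 fitted log2(RPKM + 0.5) of 12900 genes (those reaching 1 RPKM in 3 or more of the 18 libraries), in 1 model of 6 groups (12 residual degrees of freedom, eBayes with intensity trend, two-sided). P-values were adjusted by Benjamini-Hochberg over all genes within each of 9 contrasts, which share libraries, and called below 0.05. The fit was tested on simulated data. The members, gene lists and tests were chosen with earlier results of these data known. Named genes were the members, the tested other S100 genes, FOXA1 and HIF1A, up to 4 genes per list by adjusted p of FOXA1 knockdown, and the 3 genes most alike in pattern for S100A8, S100A9, S100P and S100A4 (S100A6, at 0, gave none). Gene positions are from GENCODE 29 and promoter sequences from RefSeq (GRCh38.p14). Some marker and motif results are not reported here. The search for TATAAA was chosen after the sequences were seen. Other settings were pseudocounts of 0.1 and 1, no filter, at least 5 RPKM, median-ratio scaling, quantile normalisation, removal of a length trend, a replicate block, fits of only the groups compared, and omission of the 3 short-gene-rich libraries or of each library in turn.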

Additional observations from a re-analysis of the deposited data

Results flagged for a closer look

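The effect of FOXA1 knockdown on 3 members differed with HIF1A knockdown by the interaction term in limma. S100A9 differed by -2.89 log2, its rise being 5.12 in control cells and 2.23 in HIF1A-depleted cells. S100A8 differed by -5.13 log2, on 157 reads over the shFOXA1 group and 6 over shFOXA1+shHIF1A. S100P differed by 2.34 log2, being lower by 4.09 in control cells and by 1.74 in HIF1A-depleted cells (log2 differences of -4.09 and -1.74). FOXA1 RNA was 34.1 RPKM in shFOXA1 and 64.5 RPKM in shFOXA1+shHIF1A, so a weaker FOXA1 knockdown and HIF1A knockdown cannot be told apart here. With KC7F2 the effect of FOXA1 knockdown on S100A9 differed by -1.62 log2, its rise being 3.50 under KC7F2. That call (adjusted p = 0.0450, limma) was lost in 11 of the 12 fits that leave out 1 library and in 5 of 10 other settings, with an adjusted p of 0.403 without the 3 short-gene-rich libraries.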

How the results depend on the processing

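Of 26 calls of members over the 9 contrasts, 19 held in every fit that tested the member and 7 were lost in some. Those of S100A8, S100A9 and S100P held throughout for FOXA1 knockdown, for its interaction with HIF1A knockdown and for HIF1A knockdown added to FOXA1 knockdown, as did those of S100A8 and S100A9 when KC7F2 was added. The number of members called with HIF1A knockdown went from 3 to 1 with the filter at 5 RPKM. S100A16 and S100A14 never reach that level (highest 4.66 and 4.63 RPKM), so they were not tested there. The number called with FOXA1 knockdown under KC7F2 went from 4 to 2 without the 3 short-gene-rich libraries. For the interaction of FOXA1 knockdown and KC7F2 it went from 1 to 0 with a pseudocount of 0.1, no filter, the replicate block, without those 3 libraries or with only the groups compared, and to 2 with a pseudocount of 1, quantile normalisation or the length trend removed. Leaving out 1 library gave 0 to 1. S100A11 under KC7F2 (-0.31 log2, not called) turned to 0.0489 with quantile normalisation. Scaling moved the median of all genes most for FOXA1 knockdown under KC7F2, from -0.15 to 0.01.

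No clear pairing of the libraries by replicate number was seen, though some pairing is not excluded. Deviations of 45 same-numbered pairs correlated at -0.21 to 0.25, with 9 pairs over 0.1. Their median was -0.0082, against 0.0036 for pairs with other numbers. With the replicate block S100A14 (FOXA1 knockdown, adjusted p = 0.0232) and S100A11 (under KC7F2, 0.00733; interaction with HIF1A knockdown, 0.0261) gained a call in limma. S100A9 (interaction with KC7F2, 0.0605) and S100A7 (KC7F2 added, 0.0596; under KC7F2, 0.0529) lost one. Depth limits S100A2, S100A4, S100A10, S100A14 and S100A16, which rest on 0 to 60 reads a library.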
